A study of Rattus norvegicus with 10 samples.

Results

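The ultraconserved elements (uc) carried by a rat lncRNA array, apart from 23 assigned to genes of RNA-binding proteins, were examined in synovial tissue, the lining of the joint. Members were chosen by probe name only: every element name beginning with uc was taken except those 23 numbers, and the strand, + or -, was read from the end of the name. This gave 913 probes for 457 elements, of 959 probes for 480 elements in all. Both strands were present for 456 elements, and uc.404 had only its - probe.

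Group T (called CIA here) was 5 rats with collagen-induced arthritis and group C (called control) was 5 blank control rats, with 1 array for each rat. All 10 were male Sprague Dawley rats aged 7 to 8 weeks. CIA rats had received bovine type II collagen in complete Freund's adjuvant under the skin at the tail base, then a booster with incomplete Freund's adjuvant 7 days later, and no vehicle or adjuvant injection of the control rats is described. The tissue was examined at 21 days on the 1-colour Arraystar Rat LncRNA Array V3, which was hybridised with randomly primed cRNA after removal of rRNA. CIA therefore differs from control by collagen and adjuvant together, which cannot be told apart.

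Ultraconserved elements are long stretches of the genome that are identical in human, mouse and rat. Many lie near genes of developmental transcription factors and act as enhancers, others lie in exons of genes for RNA-binding and splicing proteins, and their numbers follow their order along the human chromosomes. RNA copied from them, the transcribed ultraconserved regions, is counted among the lncRNAs and has been studied mostly in tumours, where promoter methylation silences some and microRNAs bind others. A probe of each strand makes it possible to ask which strand of an element is represented in the RNA, although a signal does not tell a free-standing lncRNA from an intron or exon of a host transcript. The probe and element sequences, the rat coordinates and the host genes of the elements were not analysed here.

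The arrays differed in the share of probes with signal. A spot counts as well above background when the scanner software places it there against the local and negative-control background. The share of member probes in that class was 38.4%, 33.2%, 22.1%, 29.4% and 34.9% on control 1 to control 5, and 32.0%, 16.5%, 20.3%, 30.9% and 25% on CIA 1 to CIA 5. The groups overlapped, and CIA 2, CIA 3 and control 3 had the fewest probes above background in both the elements and the whole array. These are called the dimmest arrays here, by that share and not by the level of their signal. On those 10 arrays the share of all lncRNA probes ranged from 28.1% to 58.6% and that of mRNA probes from 33.3% to 71.8%. CIA 1 and control 1 were scanned together, CIA 2 to CIA 5 in another scan and control 2 to control 5 in another again, so scan and group can be told apart only in the single pair that shared a scan. The probes of cell type markers are not paired with gene names here, so the labelled tissue could not be checked against its markers. In bulk tissue, fewer cells of a type and less RNA per cell cannot be told apart.

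**Figure D1:**
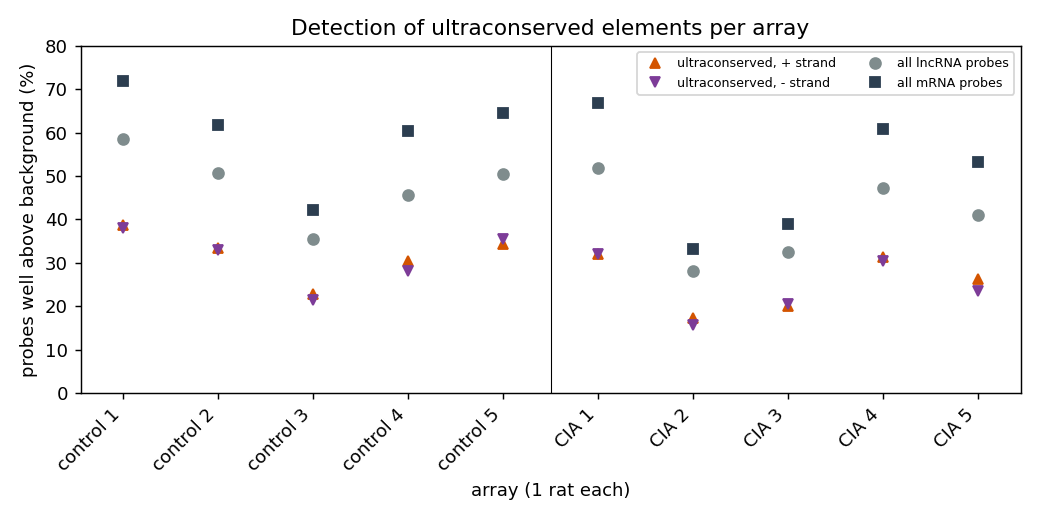
Share of probes well above background (%, y axis) on each of the 10 arrays (x axis, 1 rat each), for the + and - probes of the ultraconserved elements and for all lncRNA and mRNA probes. Both strands lay close together on every array and under the lncRNA probes, and the element shares fell to 16.5% on CIA 2 and reached 38.4% on control 1.

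Detection of the elements was sparse. Of the 913 probes, 479 (52.5%) were well above background on no array, 169 (18.5%) on 1 to 4 arrays, 139 (15.2%) on 5 to 9 arrays and 126 (13.8%) on all 10 arrays. For all 10334 lncRNA probes, which include the elements, the share on all 10 arrays was 24.9%, and for 28316 mRNA probes it was 30.5%. The 46 probes of the 23 elements outside the set had 21.7% on all 10 arrays. A filter of 5 or more arrays kept 265 members (29%), against 45.6% of lncRNA probes and 59.3% of mRNA probes.

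Most elements with signal on 5 or more arrays had it on 1 strand. Among the 456 elements with both probes, 141 (30.9%) gave no signal above background on either strand on any array. At 5 or more arrays, 84 elements had the + strand only, 77 the - strand only and 52 (11.4%) both strands, while 243 (53.3%) had neither. The - probe reached 5 arrays for 38.2% of the 136 elements whose + probe did, and for 24.1% of the 320 elements whose + probe did not. Signal on the - strand was thus more frequent where the + strand had signal, as a description of these probes without a test.

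The clearest strand patterns were those with 1 strand on all 10 arrays and the other on none, which held for 51 elements (11.2%). The + strand was the one detected for 25 of them, namely uc.16, uc.25, uc.30, uc.61, uc.64, uc.77, uc.108, uc.111, uc.113, uc.123, uc.136, uc.195, uc.215, uc.225, uc.269, uc.285, uc.316, uc.344, uc.355, uc.370, uc.426, uc.432, uc.435, uc.446 and uc.473. The - strand was the one detected for 26, namely uc.10, uc.38, uc.88, uc.90, uc.92, uc.105, uc.122, uc.149, uc.160, uc.162, uc.163, uc.240, uc.270, uc.274, uc.275, uc.310, uc.320, uc.332, uc.343, uc.362, uc.377, uc.424, uc.448, uc.460, uc.465 and uc.483. Both strands were well above background on all 10 arrays for 18 elements, namely uc.2, uc.7, uc.48, uc.102, uc.167, uc.169, uc.212, uc.246, uc.258, uc.293, uc.299, uc.308, uc.340, uc.345, uc.371, uc.414, uc.425 and uc.462.

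**Figure D2:**
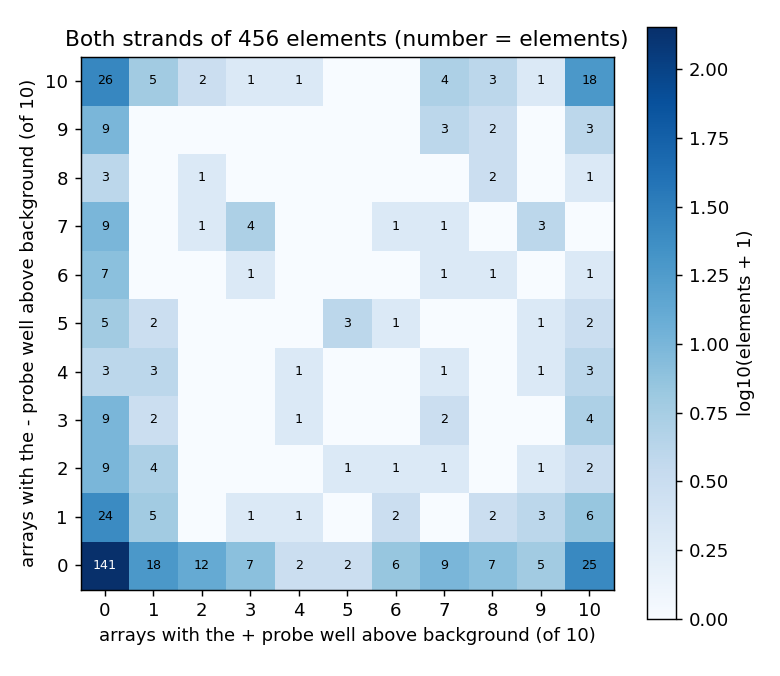
Number of arrays with the + probe (x axis, 0 to 10) and with the - probe (y axis, 0 to 10) well above background, with the number of elements printed in each square and its log10 (plus 1) as colour. The corner at 0 and 0 holds 141 elements, the corners with 1 strand on 10 arrays and the other on 0 hold 25 (+) and 26 (-), and the corner at 10 and 10 holds 18.

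Elements with neighbouring numbers often lie close together in the genome, so the strands of neighbours were set side by side. The + probe of the next element reached 5 arrays for 31.1% of 132 elements whose own + probe did and for 30.6% of 301 whose own did not. For the - probe the shares were 22.6% of 124 and 30.7% of 309. The shares were nearly equal for the + strand, and for the - strand the share was lower where the element's own probe had signal. The longest stretches of consecutive numbers detected on the same strand were 4 elements long: uc.251 to uc.254 and uc.298 to uc.301 on the + strand, and uc.47 to uc.50 and uc.160 to uc.163 on the - strand.

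Fewer CIA than control arrays gave signal for many elements, as they did for probes across the array. More control than CIA arrays had signal for 223 member probes (24.4%), beside 34% of all 38650 probes, and more CIA than control arrays for 48 (5.26%), beside 4.46%. Well above background on all 5 control arrays and on 0 or 1 CIA array were 5 members (0.548%), beside 0.414% of all probes, and the reverse held for 0 members, beside 0% of all probes. These 5 were uc.63-, uc.224+ and uc.407- (0 of 5 CIA arrays) and uc.23- and uc.155+ (1 of 5 CIA arrays). The CIA group held 2 of the 3 dimmest arrays, and the part of this in the counts was not tested.

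The 265 members that passed the filter were then compared between the groups. Values are log2 of the background-subtracted intensity minus the 75th percentile of that array, called the relative log2 signal, so that 0 is the 75th percentile. In limma with Benjamini-Hochberg adjustment over all 21521 tested probes, 0 members had an adjusted p under 0.05, beside 0% of all tested probes, and the smallest adjusted p of a member was 0.206. Without adjustment, 27 members (10.2%) had a p under 0.05, beside 14.3% of all tested probes. The methods' t-test gave 0 members after the same adjustment, and limma with array quality weights, which weight each array by how far it departs from the fit, gave 86. The share of all tested probes under these weights is not given here, so the 86 is no result about the elements. The p-values measure the spread between the rats of a group.

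With the study's thresholds (fold change over 2 or under 0.5 at an unadjusted p under 0.05), 3 members were higher in CIA rats (1.13%), beside 2.1% of all tested probes, and 14 were lower (5.28%), beside 4.7%. The higher share was under and the lower share slightly above that of the whole array, and whether either differed from it was not tested. The 3 higher probes were uc.67+, uc.477+ and uc.345+, all of the + strand. The 14 lower ones were uc.224+, uc.63-, uc.307+, uc.10-, uc.465-, uc.305+, uc.365-, uc.260-, uc.115-, uc.471+, uc.18+, uc.325-, uc.91+ and uc.94+, which are 7 of each strand.

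The bulk of the elements lay near no difference. The median log2 difference, CIA minus control, of the 265 members was -0.06, beside -0.03 for all tested probes, and the quartiles were -0.43 and 0.28. There were 115 members above 0 and 150 below. Of the 126 members on all 10 arrays, 97 had a difference of at most 0.5 in size, and the range was -1.82 to 1.26. The spread between rats was about the same as elsewhere, with a median pooled SD of 0.61 for members and 0.59 for all tested probes.

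Among the 51 strands whose opposite strand had no signal, the median difference was -0.05, with 21 above 0 and 30 below. Only uc.10-, uc.465- and uc.160-, 3 of the 51, had an unadjusted p under 0.05 in limma, beside 14.3% of all tested probes. The other 48 lay between -0.90 and 0.68. As the values of uc.10- and uc.465- below show, these strands also hold 2 of the larger decreases.

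CIA and control rats were fully separated in 8 of the tested members (3.02%), beside 3.55% of all tested probes. In 7 of them CIA lay below control, and in uc.67+ it lay above. One of the 7, uc.63-, was not well above background on any CIA array and passed the filter only through the control arrays, so its separation is not a measured one. Those of uc.18+ and uc.67+ are not measured ones either, as given below. Each had an unadjusted p under 0.05, and their adjusted p in limma was 0.206, or 0.242 for uc.246-. With array quality weights all 8 had an adjusted p from 0.00194 to 0.0112 in limma. The share of all tested probes under these weights is not given here, so this is no result about the 8. With scan as a fixed block, which rests on CIA 1 and control 1, the decreases ran from -3.05 (uc.63-) to -0.16 (uc.305+). The increase of uc.67+ was 0.23 there. After normexp correction with an offset of 50, which shrinks the differences of dim probes, the 7 decreases lay between -1.33 (uc.10-) and -0.21 (uc.18+) and the increase of uc.67+ was 0.29, each in its former direction.

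**Figure D3:**
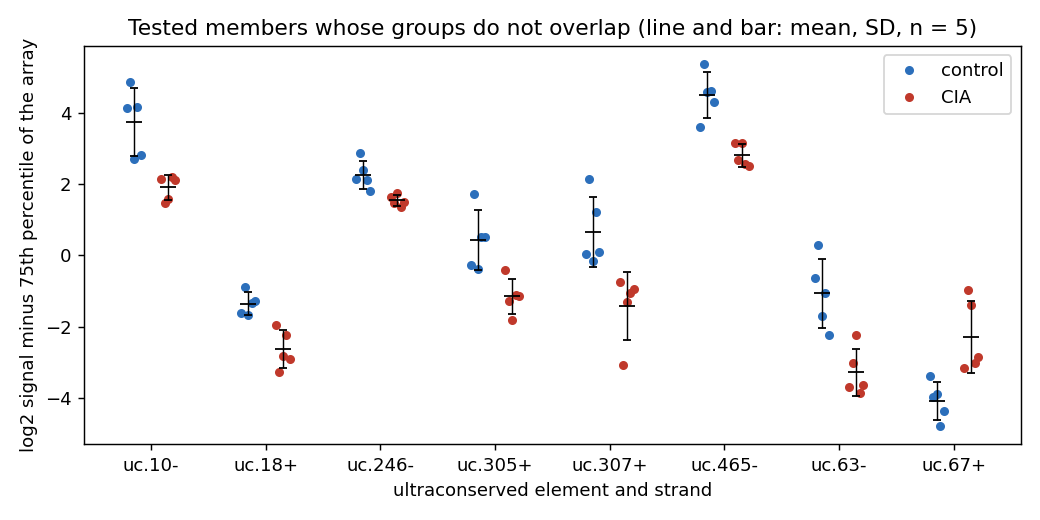
Relative log2 signal (y axis, 0 is the 75th percentile of the array) of the 8 members whose groups did not overlap (x axis), with 1 point per rat and the mean and SD (n = 5) of each group. Only uc.67+ was higher in CIA rats, and levels of different probes are not comparable. Well above background were uc.67+ on 1 control array, uc.63- on 0 CIA arrays and uc.18+ on 2 CIA arrays, so none of these separations is a measured one. For uc.305+ it was 3 and for uc.307+ 4 of the 5 CIA arrays.

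The - strand of uc.10, the element of the study's network, was measured on every array. Its relative log2 signal was 4.15, 4.88, 2.69, 4.17 and 2.81 on control 1 to control 5 and 2.16, 1.48, 1.60, 2.21 and 2.13 on CIA 1 to CIA 5. All CIA values lay below all control values, and the control rats were spread wider than the CIA rats. The study chose this probe on the same arrays, so its decrease on them is not independent evidence. The paper also reports this lncRNA as lower in CIA rats by quantitative real-time PCR. It does not state whether the RNA was that of the arrays, and the PCR values were not examined here. The opposite strand, uc.10+, was well above background on 0 of 10 arrays, with a processed intensity between 1.1 and 3.2, where uc.10- had 71.2 to 1990 (arbitrary units, not comparable between probes). The fall therefore concerned the only strand of the element that was seen.

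The - strand of uc.465 had relative log2 signals of 3.59, 5.37, 4.58, 4.63 and 4.30 on control 1 to control 5. The CIA arrays gave 3.17, 2.69, 3.16, 2.56 and 2.51, each below the lowest control value, control 1. The log2 difference was -1.68 ± 0.33 (SE, n = 5 rats a group, adjusted p = 0.206 in limma). Its + strand was at background on all 10 arrays, with intensities of 1.1 to 3.9. The array of the shared scan, control 1, was the control nearest to the CIA rats, and in that scan CIA 1 minus control 1 was -0.42.

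The element uc.63 lies in the gene of exportin XPO1, a nuclear export receptor, and has been studied in breast and prostate cancer. Its - strand had relative log2 signals of -0.63, 0.28, -1.70, -1.06 and -2.23 on control 1 to control 5 and of -3.68, -3.02, -2.23, -3.86 and -3.63 on CIA 1 to CIA 5. The control arrays were all well above background and the CIA arrays were not, so the CIA values are an upper limit and only a bound on the change can be given. No order of single CIA and control arrays can be read from these values. The + strand, uc.63+, was at background on all 10 arrays. In the shared scan, uc.63- was well above background on control 1 and not on CIA 1.

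Both strands of uc.18 gave signal, and the values of the groups did not overlap on the + strand. The relative log2 signal of uc.18+ was -1.60, -0.88, -1.68, -1.33 and -1.29 on control 1 to control 5 and -1.96, -3.28, -2.82, -2.23 and -2.90 on CIA 1 to CIA 5. All 5 control arrays but only CIA 1 and CIA 4 were well above background. The values of CIA 2, CIA 3 and CIA 5 are therefore upper limits, and the separation is not a measured one. The log2 difference was -1.28 ± 0.30 (SE, adjusted p = 0.206 in limma). The - strand was bright on all 10 arrays, and its difference of -0.59 ± 0.37 (SE) did not pass (adjusted p = 0.496 in limma). In the shared scan uc.18+ differed by -0.35.

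The element uc.246 was the smallest of the 8 changes and one of the 18 elements with both strands on every array. The relative log2 signal of uc.246- was 2.13, 2.86, 2.41, 2.11 and 1.81 on control 1 to control 5, and 1.64, 1.46, 1.75, 1.35 and 1.51 on CIA 1 to CIA 5. The groups were close, with CIA 3 just under control 5, and the log2 difference was -0.72 ± 0.25 (SE, adjusted p = 0.242 in limma). The + strand differed by 0.13 ± 0.34 (SE, adjusted p = 0.901 in limma), which is within its error. The CIA minus control difference of uc.246- in the shared scan was -0.49.

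Elements uc.305 and uc.307 are near each other in number, and both had their lower signal in CIA rats on the + strand. The values of uc.305+ were -0.26, 1.73, -0.38, 0.52 and 0.52 on control 1 to control 5 and -0.42, -1.29, -1.80, -1.10 and -1.14 on CIA 1 to CIA 5. On CIA 2 and CIA 3 the probe was not well above background, so those values are upper limits. CIA 1 lay only just under control 3 and control 1, and in the shared scan the difference was -0.16. All 10 arrays showed the - strand of uc.305, which differed by -0.42 ± 0.27 (SE, adjusted p = 0.505 in limma).

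For uc.307+, the control arrays gave 0.04, 2.15, -0.16, 1.21 and 0.08, and the CIA arrays -0.74, -3.09, -1.32, -1.05 and -0.94. CIA 2, where detection was lowest, lay far under the other CIA arrays and was the only array not well above background. The - strand of uc.307 was at background on all 10 arrays, and the shared scan gave -0.78 for uc.307+.

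The only member higher in CIA rats with groups apart was uc.67+. Its relative log2 signal was -3.38, -3.97, -3.89, -4.79 and -4.35 on control 1 to control 5 and -3.16, -0.98, -1.40, -3.03 and -2.84 on CIA 1 to CIA 5. Of the 5 arrays in each group, 4 CIA and 1 control passed the background limit, and the 2 highest values came from CIA 2 and CIA 3, the dimmest CIA arrays. On the intensity scale the probe gave 6.2 to 12.9 in CIA rats and 1.4 to 6.6 in control rats, close to the background of the arrays. Apart from control 1, the control values are upper limits, so the separation of the groups is not a measured one. Its - strand was at background throughout, and in the shared scan uc.67+ differed by 0.23.

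Because both probes of an element sit on the same array, the ratio of the + to the - strand within an array cancels the array's own brightness as long as both lie above background. This ratio was compared between CIA and control in limma for all 57 elements with both strands tested, 52 of them members. Shares over the 57 pairs are therefore mostly those of the members themselves and no outside comparison. The question was whether the strands of an element changed unequally. The strand difference is the log2 ratio in CIA minus that in control rats. Without adjustment, 5 members had a p under 0.05, beside 8.77% of the 57 pairs, and at an adjusted p under 0.05 there were 2, uc.345 and uc.224, beside 3.51% of the pairs. Of the 2, only uc.345 had both strands measured in both groups. The + probe of uc.224 was not well above background on any CIA array and passed the filter only through the control arrays, where it was high, so its p is given for completeness and supports no difference.

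Across the 52 elements the strands moved in the same direction in 24 and in opposite directions in 28. The Pearson correlation of their log2 differences was 0.07, over elements measured on the same arrays and given as a description, and the median size of the strand difference was 0.56. Many single differences lay within their SE. Some probes were well above background on few CIA arrays, such as uc.407- on 0 and uc.3- on 1. The correlation therefore cannot show whether the 2 strands of an element change together or not. Among the 18 elements with both strands on all 10 arrays, the strand difference ran from -0.57 to 1.57, and uc.345 was the only one with an unadjusted p under 0.05, the other 17 reaching at most 1.06.

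**Figure D4:**
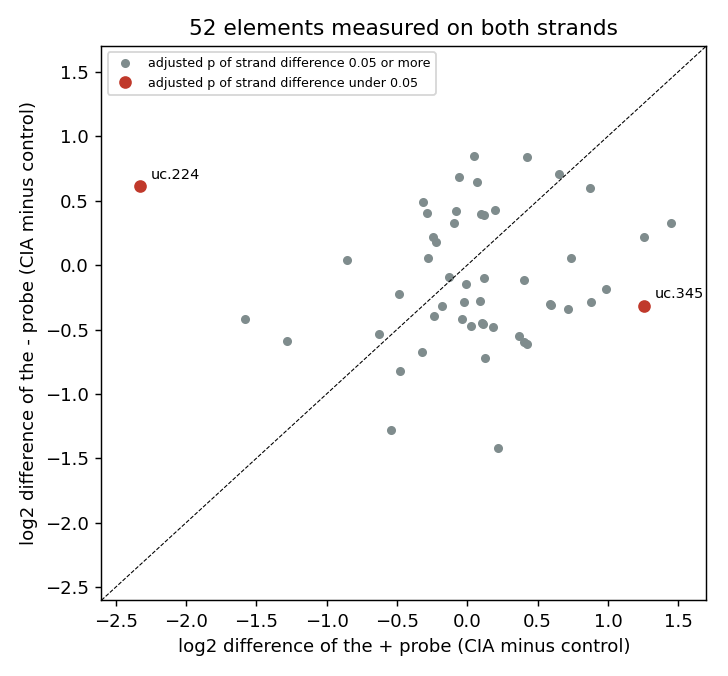
Log2 difference, CIA minus control, of the + probe (x axis) and the - probe (y axis) for 52 elements with both probes tested. Some of these probes were well above background on few CIA arrays. The dashed line marks where both differences are equal. Most points lie within 1 of 0 on both axes, and the labelled elements are uc.345 (1.26 and -0.32) and uc.224 (-2.33 and 0.61), the latter with CIA values of its + probe at background.

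For uc.345, both strands were well above background on all 10 arrays. The log2 ratio of + to - was -1.32, -2.08, -1.92, -1.34 and -1.50 on control 1 to control 5, and -0.17, 0.02, 0.47, -0.44 and -0.19 on CIA 1 to CIA 5. Every CIA rat lay above every control rat, and the group means were -0.06 ± 0.34 and -1.63 ± 0.35 (SD, n = 5). The strand difference was 1.57 ± 0.35 (SE, adjusted p = 0.0181 in limma over 57 pairs). The pair in the shared scan gave 1.15, in the same direction.

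The intensities show where this came from. The + strand of uc.345 read 30.3, 12.0, 6.9, 9.4 and 12.7 on control 1 to control 5 and 28.7, 21.5, 27.1, 30.4 and 23.2 on CIA 1 to CIA 5, while the - strand read 75.7, 50.7, 26.1, 23.9 and 35.9 in control and 32.2, 21.2, 19.5, 41.1 and 26.6 in CIA rats. On the relative log2 scale the + strand was higher in CIA by 1.26 ± 0.37 (SE, adjusted p = 0.206 in limma), with control 1 inside the CIA range. The - strand differed by -0.32 ± 0.31 (SE, adjusted p = 0.687 in limma). In the shared scan the + strand differed by only 0.23 and the - strand by -0.92, so the part of each strand in the unequal change was not the same there. The result lost its adjusted call without CIA 1, CIA 3, CIA 4, CIA 5 or control 2 (adjusted p from 0.051 to 0.0551), without the 3 dimmest arrays (1.29, adjusted p = 0.0889), with scan as a block (adjusted p = 0.994) and after normexp background correction with an offset of 50 (0.23, adjusted p = 0.357) or of 0 (0.66, adjusted p = 0.197).

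For uc.224, the log2 ratio was -1.13, 3.04, 0.45, -0.01 and 0.50 on control 1 to control 5 and -2.18, -2.15, -2.83, -2.80 and -1.87 on CIA 1 to CIA 5. The CIA ratios rest on a + probe at background, and the control ratios were spread widely, with control 2 far above and control 1 below the rest. The fitted strand difference was -2.94 ± 0.64 (SE, adjusted p = 0.0181 in limma). The probe uc.224+ passed the background limit on 5 of 5 control and 0 of 5 CIA arrays, with intensities of 6.4 to 54.3 against 1.3 to 3.0, and uc.224- on 2 of 5 control and 3 of 5 CIA arrays.

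The CIA values of uc.224+ are thus upper limits, and only a bound can be set. On the relative log2 scale, the control mean lay 1.27-fold above the background limit of the CIA arrays. That mean includes control 2, with an intensity of 54.3, where the other control arrays gave 6.4 to 9.2. The adjusted p of 0.206 in limma belongs to the fitted difference of -2.33 and not to the bound. The probe passed the filter only through the control arrays, so the bound is no evidence of a decrease. Here the bound takes, on each CIA array, the higher of the lowest signal well above background and the probe's own. The ratio of the strands is no measured fold for this element. Its adjusted call was lost with quantile normalization (adjusted p = 0.0575), with the authors' log2 values (-1.87, adjusted p = 0.25), without the filter on dim probes (adjusted p = 0.105), with the methods' t-test (adjusted p = 0.0829), without the 3 dimmest arrays (adjusted p = 0.0889), without CIA 1, CIA 3, CIA 4 or CIA 5 (adjusted p from 0.051 to 0.0551), with scan as a block (-1.05, adjusted p = 0.994) and after normexp correction with an offset of 50 (-0.54, adjusted p = 0.125).

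**Figure D5:**
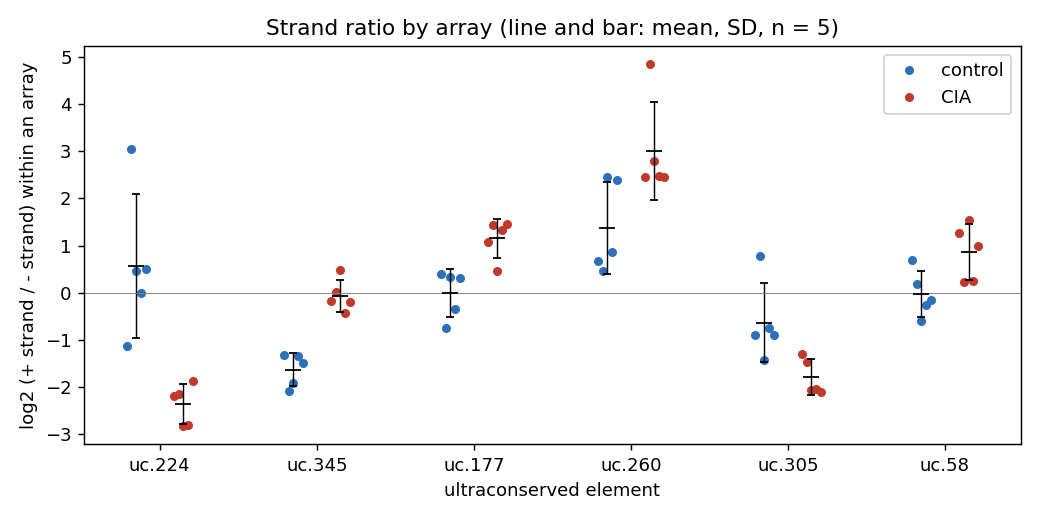
Log2 ratio of the + to the - strand within an array (y axis) for the 6 member elements with the smallest p for the strand difference (x axis), with 1 point per rat and the mean and SD (n = 5). The groups did not overlap for uc.224, uc.345, uc.177 and uc.260, with the CIA ratio lower only for uc.224, whose + probe was at background in CIA rats. Both strands of uc.177 on CIA 2 and control 3, and uc.260- on CIA 2, were not well above background. The same held for both strands of uc.58 on CIA 2, CIA 3 and control 3, and for uc.305+ on CIA 2 and CIA 3. It also held for uc.224- on CIA 1, CIA 5, control 2, control 3 and control 5.

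The next 4 elements did not pass the adjusted threshold. For uc.177 the log2 ratio was between 0.45 and 1.45 in CIA and between -0.76 and 0.39 in control rats, without overlap, and the strand difference was 1.16 ± 0.38 (SE, adjusted p = 0.188 in limma). Neither strand of uc.177 was well above background on CIA 2 or control 3, so the ratios of those arrays are not measured ones. For uc.260 the strand difference was 1.64 ± 0.59 (adjusted p = 0.233), where the lowest CIA ratio, 2.46 on CIA 1, exceeded the highest control ratio, on control 3, by less than 0.01. The - strand of uc.260 was not well above background on CIA 2, so the ratio there is not a measured one.

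In uc.260 the difference lay on the - strand, with a log2 difference of -1.42 ± 0.36 (SE, adjusted p = 0.206 in limma), and the + strand differed by 0.22 ± 0.51. The relative log2 signal of uc.260- was -0.23, 0.24, -0.03, -0.01 and -1.48 on control 1 to control 5 and -1.79, -2.05, -0.94, -2.06 and -1.77 on CIA 1 to CIA 5. CIA 3 lay above control 5, so the groups overlapped by that pair. For uc.305 the strand difference was -1.16 ± 0.45 (adjusted p = 0.259) and for uc.58 it was 0.89 ± 0.41 (adjusted p = 0.413), and in both elements the groups overlapped. Not well above background were uc.305+ on CIA 2 and CIA 3 and both strands of uc.58 on CIA 2, CIA 3 and control 3. The ratios of those arrays are not measured ones.

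The 5 members seen on all control arrays and on at most 1 CIA array differed in what could be measured. For uc.63- the control mean lay 2.66-fold above the background limit of the CIA arrays, on the same rule as for uc.224+. For uc.407- the control signal, an intensity of 6.5 to 9.8, was too near the background for any fold, beside 4.4 to 6.2 in CIA rats. For uc.23- the intensity was 5.7 to 23.3 in control and 3.1 to 13.6 in CIA rats, and for uc.155+ it was 9.2 to 12.6 and 4.3 to 7.9. Of the last 3 probes, uc.407- and uc.155+ had ranges that kept apart on the intensity scale, which is not scaled between arrays. The probes were chosen by detection in control and not in CIA rats, so this is no evidence of a difference. On the relative log2 scale neither uc.23- (-0.67 ± 0.74, SE, adjusted p = 0.732 in limma) nor uc.155+ (-0.63 ± 0.40, adjusted p = 0.509) nor uc.407- (-0.40 ± 0.40, adjusted p = 0.7) passed.

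Elements with a known role elsewhere were taken as a list of 17, with 34 probes. Of these probes, 21 were at background on all arrays, 3 were detected on 1 to 4 arrays and 10 were tested, 6 of them detected on all 10 arrays. For 8 of the 17 elements neither strand was seen on any array. The median log2 difference of the 10 tested probes was -0.15, beside -0.03 for all tested probes, and 3 had an unadjusted p under 0.05, beside 14.3% of all: uc.48+ and uc.160- were higher and uc.63- was lower. None passed the adjusted threshold in limma.

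The element uc.48 has been studied in rat sensory ganglia, with P2X receptors and diabetic pain. The relative log2 signal of uc.48+ was 3.34, 3.15, 4.07, 3.34 and 2.89 on control 1 to control 5 and between 3.58 and 4.91 on the CIA arrays. The groups overlapped only through control 3, and the difference was 0.72 ± 0.33 (SE, adjusted p = 0.345 in limma). The - strand, also detected on all arrays, differed by -0.34 ± 0.34.

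Elements uc.160 and uc.346 are known for silencing by methylation of a CpG island in cancer. The - strand of uc.160 gave 0.31, -0.50, 0.65, -0.53 and -0.36 on control 1 to control 5 and 0.47, 2.02, 0.60, 0.62 and 0.66 on CIA 1 to CIA 5. CIA 2 stood above the rest, control 3 lay within the CIA range, and the difference was 0.96 ± 0.37 (SE, adjusted p = 0.272 in limma). Its + strand was at background on all arrays. For uc.346- the difference was 0.04 ± 0.29, for uc.339+, whose RNA binds microRNAs in tumour cells, 0.07 ± 0.26, and for uc.73+, tied to growth of colon cancer cells, -0.42 ± 0.48, each smaller than its error. The opposite strand, uc.346+, was well above background on 4 CIA and 5 control arrays and differed by -0.85 ± 0.46 (SE). Which strand of uc.160 and uc.346 the cancer studies concern was not checked here.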

How the data were processed

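The authors deposited 1 scanner file per array, made with Agilent Feature Extraction 11.0.1.1, whose processed signal is an intensity with the background subtracted, and a table of log2 values that the authors had normalized between arrays by a method not given in the sources used here. The log2 of the intensity minus the 75th percentile of each array over lncRNA and mRNA probes was used. Spots marked as non-uniform or as population outliers were dropped, which removed uc.204+ on CIA 1 and uc.483- on control 1, so uc.483- was fitted on the other 9 arrays. Probes that 5 or more of the 10 arrays placed well above background were tested with lmFit and eBayes (limma 3.58.1, R 4.3.3), and Benjamini-Hochberg adjustment covered all 21521 tested probes, or all 57 strand pairs. Python 3.11.15 with pandas 2.3.3, numpy 2.4.6 and matplotlib 3.10.9 was used for tables and figures. The fits were tested on simulated data with known changes. The number of arrays limits the precision.

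Members, the list of 17 elements and the tests were chosen with earlier results of these data known. Named members were tested probes whose groups did not overlap at an unadjusted p under 0.05, with their opposite strands, the 6 member pairs with the smallest p for the strand difference, members seen on 5 arrays of a group and 0 or 1 of the other, uc.10, and those of the 17 elements seen on all arrays. Alternatives were the methods' t-test, the authors' log2 values, a percentile over all spots, quantile normalization, normexp correction of the median spot signal before it, a block for replicate number, a fixed or random block for scan, weights by array quality, a filter on all 10 arrays or none, leaving out the 3 dimmest arrays, and leaving out each array in turn. Normexp with an offset of 0 was chosen after seeing the data.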

Additional observations from a re-analysis of the deposited data

Results flagged for a closer look

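Within groups of 5 arrays, 74 sets of values of the named members were examined for an array whose gap to its nearest neighbour exceeded 0.71 of the range of the group, and about 3.7 would pass by chance. There were 8 such values. On CIA 2, where detection was lowest, they were the relative log2 signals of uc.307+ (-3.09), uc.177- (-3.21) and uc.160- (2.02) and the log2 strand ratio of uc.260 (4.85). The probes uc.307+, uc.177- and uc.260- were not well above background on CIA 2. The rest were uc.260+ on control 3 (2.43), uc.260- on CIA 3 (-0.94), uc.260- on control 5 (-1.48) and uc.407- on control 3 (-1.19). The part of the array's share of detected probes in these values was not tested.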

How the results depend on the processing

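With 5 arrays per group and many members near background, counts moved with the processing, and the cause was not tested. Beside 3 members higher and 14 lower in CIA rats, the counts past the study's thresholds were 11 and 28 with array quality weights (with 86 members at an adjusted p under 0.05 in limma, and 0 in every other setting), 25 higher without the filter on dim probes (median log2 difference 0.47), 1 and 3 with a filter on all 10 arrays, 0 and 2 after normexp with an offset of 50, 8 lower with an offset of 0, 0 and 2 with scan as a fixed block, 5 higher with scan as a random block and 6 higher without the 3 dimmest arrays. Leaving out single arrays gave 3 to 7 higher and 12 to 17 lower. These are counts of members only, without the share of all tested probes in each setting.

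Beside 2 strand pairs at an adjusted p under 0.05, the count was 1 with quantile normalization, normexp with either offset, the authors' log2 values, no filter, a filter on all 10 arrays or the methods' t-test, 0 with scan as a fixed block or without the 3 dimmest arrays, 3 with array quality weights or scan as a random block, and 0 to 2 without single arrays. Beside 5 pairs at an unadjusted p under 0.05, it was 8 with quantile normalization or the authors' values, 11 with normexp at an offset of 0, 71 without the filter (where all element pairs enter), 1 with the filter on all 10 arrays, 0 with scan as a fixed block, 13 with scan as a random block or without the 3 dimmest arrays, 15 with array quality weights and 4 to 9 without single arrays.

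Same-numbered arrays deviated together in numbers 1, 3, 4 and 5 (r from 0.44 to 0.75) but not in 2 (r = -0.08). The labels do not say what arrays of the same number share, and only those of number 1 shared a scan. With the replicate number as a block, 3 members were higher and 15 lower, 2 strand pairs passed at the adjusted and 11 at the unadjusted threshold, and uc.345 kept its strand difference of 1.57 (adjusted p = 0.0362). Signs turned for uc.155+ (0.041 and 0.16) and uc.345- (0.033 and 0.11) after normexp with offsets of 50 and 0, and for uc.224- with scan as a fixed block (-1.01), array quality weights (-0.14) and without the 3 dimmest arrays (-0.13).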
